A study of Mus musculus with 2 samples.

Results

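Creatine kinases and adenylate kinases move high-energy phosphate through the muscle cell, and 9 genes of these systems were measured here in the heart of the newborn mouse. The members were the cytosolic creatine kinases Ckm and Ckb, the mitochondrial creatine kinases Ckmt1 and Ckmt2, the creatine transporter Slc6a8, the creatine synthesis enzyme Gamt, and the adenylate kinases Ak1, Ak3 and Ak4. They were chosen by name, and each was found in both gene tables by its identifier without version, so that 9 of 43346 genes were described. The data were ribosome-depleted total RNA libraries, read in pairs with strand kept, from whole hearts of 0 day old mice of strain B6NTac;B6NCrl/Lap, with males and females pooled and no treatment. There was 1 group with 2 biological replicates, each a pool of animals. Replicate 1 pooled 15 mice, and the number in replicate 2 is not given in the labels. Both pools carry the same strain and donor label, so the spread between them is the spread between pools of 1 strain, and each value is an average over pooled hearts and over every cell type of the organ.

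Creatine kinase transfers phosphate between ATP and creatine, and phosphocreatine acts as a store that refills ATP beside the contractile filaments and the ion pumps. The mitochondrial forms load creatine with phosphate where ATP leaves the organelle, and the cytosolic forms return it to ADP at the sites of use. Adenylate kinase interconverts ATP, ADP and AMP, which recovers ATP from ADP and yields the AMP that AMP-activated kinase senses. In rodents the heart is known to shift during development from the B towards the M form of cytosolic creatine kinase, and the newborn heart is a stage on that path. Only 1 age was sampled, so no change with age was measured.

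Levels are given as TPM (transcripts per 1000000), a unit that corrects the reads of a gene for its effective length and for the depth of the library, so that genes can be compared with each other. The libraries held 69946215 and 73615802 gene counts, of which the 9 members took 0.385% and 0.418%. A gene counted as detected where it reached 1 TPM in each replicate. Of the members 8 of 9 were detected, against 24.2% of all genes and 47.1% of protein-coding genes, and Ckmt1 was the exception. The 8 listed cardiomyocyte markers, which include Tnnt2, Myh6 and Ryr2, were all detected with summed levels of 12513 and 12590 TPM.

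The sequence just upstream of the start of each gene differed in kind among the creatine kinases and is shown first. These isoenzyme genes, encoding related enzymes, were read at levels from under 1 to over 1000 TPM. A relation between the sequence and the level was not tested. The windows are 250 bases long, run 5′ to 3′ on the strand of the gene and end at the base before the RefSeq start (RefSeq, GRCm38.p6). The table of windows held 8 of the 9 members, and Slc6a8 had no entry. Where a gene had several windows, the one nearest the start of its leading transcript is given. Capitals mark every match, on either strand, to one of 8 motifs. These were a TATA-type element spelled TATAAA, its variant form spelled TATATAA, the E box spelled CANNTG, the CCAAT box, the Sp1-type box spelled GGGCGG, the estrogen-related receptor element spelled AAGGTCA, and the consensus motifs of MEF2 and of serum response factor (CArG). The windows are Ckm at chr7:19410844-19411093 on the plus strand, Ckb at chr12:111672339-111672588 on the minus strand, Ckmt2 at chr13:91876886-91877135 on the minus strand, Ckmt1 at chr2:121357526-121357775 on the plus strand, and Ak1 at chr2:32625187-32625436 on the plus strand.
Ckm: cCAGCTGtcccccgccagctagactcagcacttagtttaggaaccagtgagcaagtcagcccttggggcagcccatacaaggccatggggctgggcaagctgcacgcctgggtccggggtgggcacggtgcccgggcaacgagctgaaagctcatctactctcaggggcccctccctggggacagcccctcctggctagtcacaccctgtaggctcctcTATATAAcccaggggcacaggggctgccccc
Ckb: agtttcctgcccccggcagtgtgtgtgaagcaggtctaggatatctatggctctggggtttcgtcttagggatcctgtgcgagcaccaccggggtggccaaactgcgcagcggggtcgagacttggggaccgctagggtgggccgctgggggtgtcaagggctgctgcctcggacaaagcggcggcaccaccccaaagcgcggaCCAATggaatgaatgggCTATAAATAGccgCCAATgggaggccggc
Ckmt2: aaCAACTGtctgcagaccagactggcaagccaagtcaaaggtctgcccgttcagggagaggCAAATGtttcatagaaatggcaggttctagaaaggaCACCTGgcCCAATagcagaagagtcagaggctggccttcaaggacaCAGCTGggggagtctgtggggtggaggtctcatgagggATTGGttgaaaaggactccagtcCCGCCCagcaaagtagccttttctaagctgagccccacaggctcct
Ckmt1: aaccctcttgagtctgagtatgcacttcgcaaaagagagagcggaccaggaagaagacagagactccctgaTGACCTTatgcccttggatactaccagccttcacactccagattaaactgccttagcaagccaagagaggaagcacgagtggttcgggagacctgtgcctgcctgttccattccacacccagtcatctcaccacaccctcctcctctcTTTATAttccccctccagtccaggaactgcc
Ak1: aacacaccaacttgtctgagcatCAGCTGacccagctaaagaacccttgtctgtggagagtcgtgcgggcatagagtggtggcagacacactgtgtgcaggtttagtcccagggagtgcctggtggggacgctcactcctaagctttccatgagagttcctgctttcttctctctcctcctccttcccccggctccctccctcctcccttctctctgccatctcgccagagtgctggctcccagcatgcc

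The Ckm window held TATATAA 31 to 25 bases upstream of the RefSeq start and 1 E box match at its far end. The GENCODE M21 transcript Ckm-201 starts 31 bases before the RefSeq start, so the last 31 bases shown lie within that model. The Ckb window held TATAAA 28 to 23 bases upstream, inside a MEF2 match that spans 29 to 20, and CCAAT on both sides of it, at 46 to 42 and at 16 to 12. In the Ckmt1 window the letters TATAAA stood on the reverse strand, 31 to 26 bases upstream, and AAGGTCA on the reverse strand at 179 to 173. The Ckmt2 window held neither TATA form. It had 4 E box matches, 2 CCAAT matches and 1 Sp1-type box match. The Ak1 window held 1 E box match and none of the other letters searched.

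These letters are of very different frequency. Over 32817 RefSeq windows of the same length, TATAAA was found in 12.4%, TATATAA in 3.04%, a MEF2 match in 2.92%, a CArG match in 1.47%, AAGGTCA in 4.08%, CCAAT in 33.8%, GGGCGG in 32.7% and CANNTG in 66.2%. The E box letters therefore occur in most windows. TATAAA and the MEF2 consensus overlap in Ckb and are not separate matches there. The number of CpG dinucleotides was 16 in the Ckb window, 6 in Ckm, 5 in Ak1, 4 in Ckmt1 and 2 in Ckmt2, against a median of 6 over all windows. Among the members whose windows are not shown, Ak4 had 24, Ak3 16 and Gamt 12, with 3 Sp1-type box matches in Gamt, 2 in Ak3 and none in Ak4. A match is a description of the letters only, and binding was not measured.

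**Figure D1:**
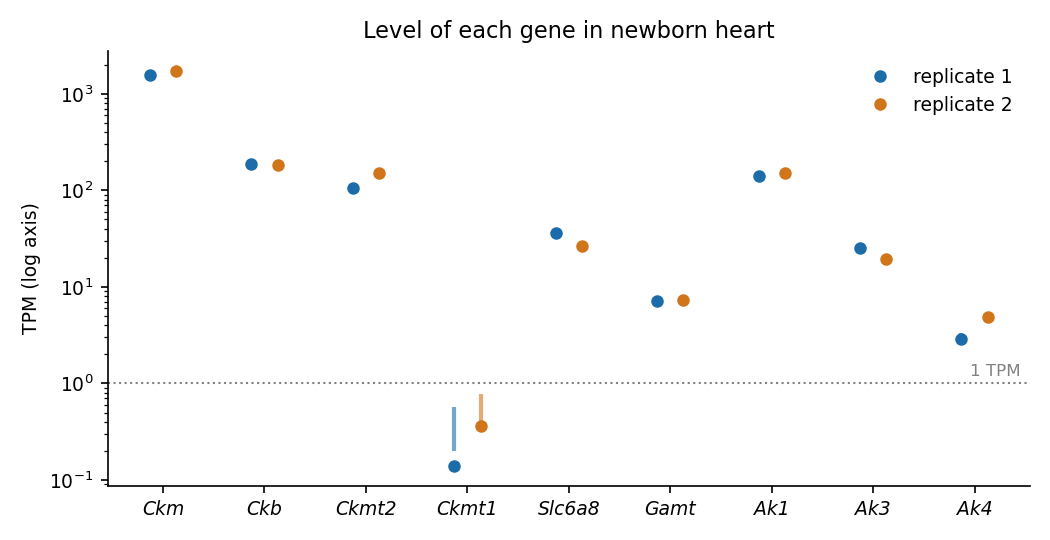
TPM of each of the 9 members in replicate 1 and replicate 2 on a log scale, with vertical lines for the interval deposited with each estimate, whose level is not stated and which the points hide except for Ckmt1. Ckm stands above all other members in both replicates, and Ckmt1 is the lowest, under 1 TPM.

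Ckm, the muscle form of cytosolic creatine kinase, was the highest of the members by far. Its level was 1581 TPM in replicate 1 and 1742 TPM in replicate 2, or 1661 ± 114 TPM (SD, n = 2), on 187905 and 217376 expected counts. This placed it 18th and 17th among 21474 protein-coding genes. The gene (ENSMUSG00000030399.1) spans chr7:19404776-19422841 on the plus strand. Ckb, the brain form, which also occurs in smooth muscle and in the embryonic heart, was the second of the members by mean, at 186 TPM and 184 TPM, or 185 ± 1.42 TPM (SD, n = 2). It lies at chr12:111669361-111672338 on the minus strand (ENSMUSG00000001270.8), on 23292 and 24189 counts. In newborn heart RNA the M form was thus 8.52 times the B form in replicate 1 and 9.49 times in replicate 2.

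The mitochondrial pair was further apart. Ckmt2, the sarcomeric form, stood at 106 TPM and 151 TPM, or 128 ± 31.9 TPM (SD, n = 2), on 13375 and 20029 counts (ENSMUSG00000021622.3, chr13:91853387-91876885, minus strand). Ckmt1, the form found in brain and in many epithelia and called ubiquitous, had 18 counts and 49 counts, which give 0.14 TPM and 0.36 TPM (ENSMUSG00000000308.10, chr2:121357714-121363737, plus strand). The exact 95% Poisson limits on those counts, which cover counting error only, are 10.7 to 28.4 and 36.3 to 64.8, so both libraries held Ckmt1 reads and replicate 2 held more. The estimate itself depends on the estimator at this depth. The posterior mean, a deposited alternative to the maximum likelihood TPM, was 0.37 TPM and 0.58 TPM for Ckmt1, and the deposited intervals of 0.199 to 0.564 and 0.398 to 0.780 lie above the maximum likelihood values and overlap each other. A value outside its interval was not confined to low counts, since the maximum likelihood values of Ckm lay just above theirs. The Ckm intervals were 1560 to 1574 TPM in replicate 1 and 1720 to 1735 TPM in replicate 2. Ckmt2 was 756 times Ckmt1 in replicate 1 and 419 times in replicate 2, and these folds carry the error of the low Ckmt1 counts.

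Of all creatine kinase TPM, which summed to 1872 and 2077, Ckm held 84.4% and 83.9%. Ckb held 9.91% and 8.84%. Ckmt2 held 5.65% and 7.27%, and Ckmt1 held 0.00748% and 0.0173%. The division was nearly the same by counts that were not divided by length, with 83.7% and 83.1% for Ckm, since the effective lengths of the creatine kinase genes are close to each other. The cytosolic pair was 16.7 times the mitochondrial pair in replicate 1 and 12.7 times in replicate 2, and the gap between those ratios follows the higher Ckmt2 value in replicate 2.

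Creatine reaches the cell mainly through its transporter. Slc6a8, the sodium-coupled creatine transporter, was at 36.2 TPM in replicate 1 and 26.4 TPM in replicate 2, or 31.3 ± 6.88 TPM (SD, n = 2), on 9571 and 8343 counts (ENSMUSG00000019558.10, chrX:73673150-73682502, plus strand). Gamt, which methylates guanidinoacetate to creatine, was at 7.09 TPM and 7.32 TPM, or 7.21 ± 0.163 TPM (SD, n = 2), on 522 and 564 counts (ENSMUSG00000020150.9, chr10:80258151-80261012, minus strand). Gatm, which makes guanidinoacetate from arginine and glycine and is the only other gene of creatine synthesis listed, was at 0.99 TPM in both replicates, just under the threshold for detection, on 219 and 231 counts. By the posterior mean Gatm was at 1.04 and 1.05 TPM, just over the threshold, so its call depends on the estimator. The transporter was above both synthesis genes in both replicates. Gamt was 7.16 and 7.39 times Gatm by TPM but only 2.38 and 2.44 times by counts.

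The adenylate kinases were led by Ak1, the cytosolic form of muscle, brain and erythrocytes. Ak1 was at 142 TPM and 151 TPM, or 147 ± 6.79 TPM (SD, n = 2), on 26508 and 29521 counts (ENSMUSG00000026817.10, chr2:32621758-32635058, plus strand). Ak3, the GTP:AMP phosphotransferase of the mitochondrial matrix, was at 25.4 TPM and 19.6 TPM, or 22.5 ± 4.09 TPM (SD, n = 2; ENSMUSG00000024782.7, chr19:29020833-29047961, minus strand). Ak4, a matrix member of the family with low catalytic activity, was at 2.86 TPM and 4.86 TPM, or 3.86 ± 1.41 TPM (SD, n = 2; ENSMUSG00000028527.14, chr4:101419277-101466995, plus strand). Replicate 1 was the higher for Ak3 and the lower for Ak4, and in both replicates the order was Ak1, Ak3, Ak4.

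Of the summed TPM of the 3 adenylate kinase members, Ak1 held 83.4% and 86.1%, Ak3 held 14.9% and 11.2%, and Ak4 held 1.68% and 2.76%. Other genes of the family were set beside them. Ak6, a nuclear family member, was at 38.9 TPM and 32.1 TPM, and its gene overlaps Taf9 on the same strand, where reads may be assigned to either gene. Ak5 had 7 and 0 counts, Ak7 had 0 and 1, Ak8 had none in either library and Ak9 had 1 and 46. Ak6 was thus above Ak3 and below Ak1 in both replicates.

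By mean TPM the order of the members was Ckm, Ckb, Ak1, Ckmt2, Slc6a8, Ak3, Gamt, Ak4 and Ckmt1. The values of Ak1 and Ckmt2 overlapped, since Ckmt2 in replicate 2 lay between both Ak1 values. For every other pair of neighbours the replicates did not overlap, but the lower Slc6a8 value, 26.4 TPM, was close to the higher Ak3 value, 25.4 TPM. The place of Ckb above Ak1 rests on division by length, because Ak1 has the longer transcript. By counts Ak1 exceeded Ckb in both libraries, with 26508 against 23292 in replicate 1 and 29521 against 24189 in replicate 2.

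**Figure D2:**
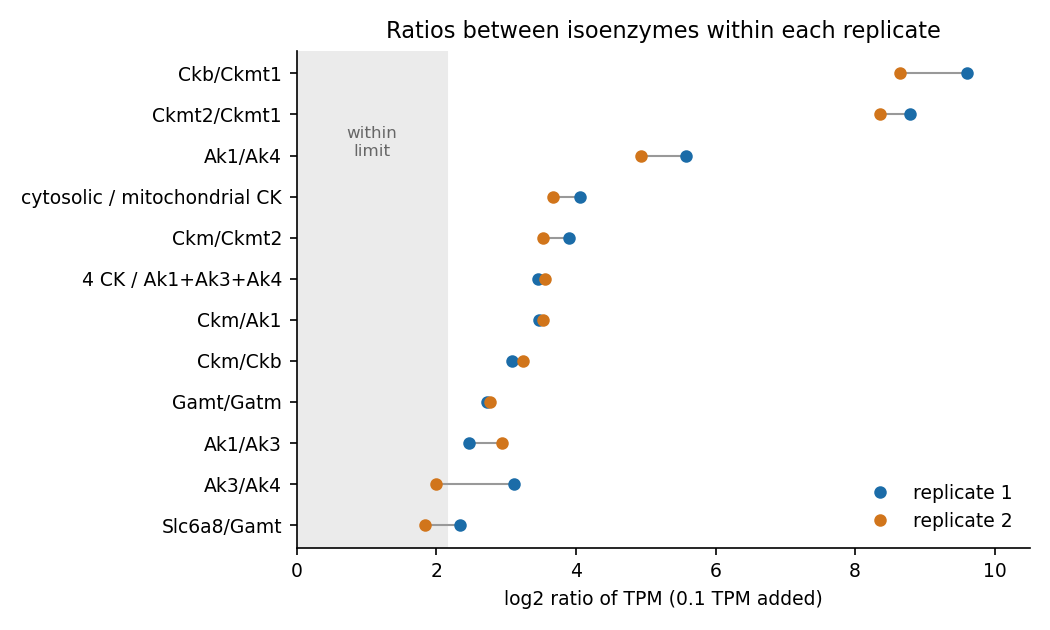
Log2 ratio of TPM, with 0.1 TPM added to each level, within each replicate for 12 pairs of genes or sums, with the shaded band reaching to the limit of 2.15. The points of 10 pairs lie past the band in both replicates, and those of Slc6a8 over Gamt and Ak3 over Ak4 do not.

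The ratios were set against the spread of genes between the replicates. The limit was the 95th percentile of the absolute log2 difference between replicates, centred on the median gene, over the 11594 genes whose mean reached 1 TPM, and came to 2.15, or 4.44-fold. With 1 group of 2 replicates it is a yardstick and not a test. Of 12 ratios 10 exceeded it in both replicates. How often ratios between other genes pass this limit was not counted, so the number does not set these genes apart. The ratio of Ckm to Ckmt2 was 3.90 and 3.53 on the log2 scale, that of Ckm to Ak1 3.48 and 3.52, and that of Ak1 to Ak3 2.48 and 2.94. The pairs that did not exceed it were Slc6a8 over Gamt, at 2.33 and 1.84, and Ak3 over Ak4, at 3.11 and 1.99. Those ratios had the same direction in both replicates, and replicate 2 alone fell short. The stricter 99th percentile, 4.85, left 3 of 12, which were Ckmt2 over Ckmt1, Ckb over Ckmt1 and Ak1 over Ak4.

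The 4 creatine kinases together were 11.0 times the 3 adenylate kinase members in replicate 1 and 11.8 times in replicate 2 by TPM. By counts the same sums differed 6.53-fold and 7.05-fold, since the effective lengths of Ak1, Ak3 and Ak4, 1771, 2520 and 3746 nucleotides in replicate 1, exceed those of the creatine kinases, 1126 to 1229. Among all ratios the one between Ckm and Ak1, the leading gene of each family, was among the steadiest, with a difference between replicates of 0.05 on the log2 scale. The largest such difference was 1.12, for Ak3 over Ak4, in which the 2 genes differed between the replicates in opposite directions.

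**Figure D3:**
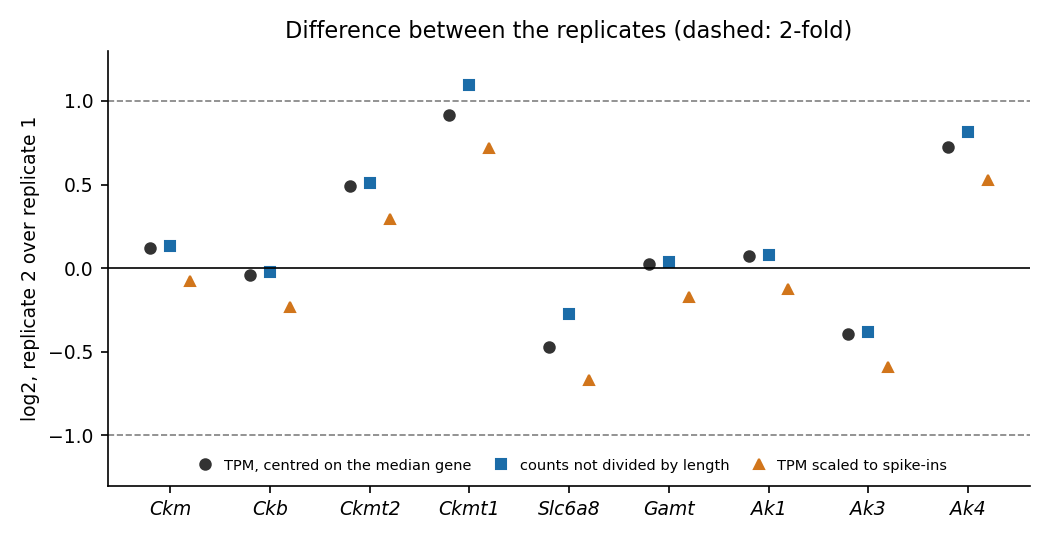
Log2 difference of replicate 2 over replicate 1 for each member, from TPM centred on the median gene, from counts not divided by length and from TPM scaled to spike-in RNA, with dashed lines at 2-fold. The 8 members whose mean reached 1 TPM lie within 2-fold on all 3 scales, and Ckmt1, under that level, passes it by counts.

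The members were then compared between the replicates. None of the 8 members whose mean reached 1 TPM differed 2-fold after centring on the median gene, where 19.0% of the 11594 such genes did. At 1.5-fold 1 of the 8, Ak4, was past the threshold, where 36.3% of genes were. That call depended on the scale, since with scaling to added spike-in RNA, chosen after seeing the data, Ak4 was 1.44-fold higher while Slc6a8 was 1.59-fold lower in replicate 2 and Ak3 was lower by just over the threshold. With a pseudocount of 1 TPM Ak4 was just short of the threshold. The centred log2 difference was 0.72 for Ak4, 0.49 for Ckmt2, 0.12 for Ckm, 0.07 for Ak1, 0.02 for Gamt, -0.04 for Ckb, -0.39 for Ak3 and -0.47 for Slc6a8. For Ckmt1, outside that count, it was 0.92 by TPM and 1.10 by counts, both with 0.1 added. With nothing added and no centring, the Ckmt1 TPM was 2.57 times as high in replicate 2, past 2-fold. The median absolute difference was 0.39 over all 9 members, which include Ckmt1, a gene under the 1 TPM filter. It was 0.40 over all genes at a mean of 1 TPM and 0.27 over genes at a mean of 10 TPM. The sets are unlike because of Ckmt1, so these medians do not rank the members against other genes.

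The scale on which the libraries are set equal bears on the small differences. Added spike-in RNA made up 1.51% and 1.75% of TPM, and scaling to it instead of to the median gene shifted every difference down by 0.20. The differences of Ckm, Gamt and Ak1 then changed sign, to -0.08, -0.17 and -0.12. Ckmt2 and Ak4 remained higher in replicate 2, at 0.29 and 0.53, and Ckb, Slc6a8 and Ak3 remained lower. The deposited intervals of the replicates did not overlap for 6 of the 8 members, and the same held for 73.3% of genes, so a gap between libraries beyond the deposited estimation error was common. Those 6 were Ckm, Ckmt2, Slc6a8, Ak1, Ak3 and Ak4.

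Markers of cell types were read beside the members. The summed cardiomyocyte markers were nearly equal in the libraries, and per 1000 TPM of these markers there were 126 and 138 TPM of Ckm and 8.46 and 12.0 TPM of Ckmt2. The single markers went both ways, with Myl2 at 1974 and 2284 TPM and Myl7 at 708 and 406 TPM. The 5 smooth muscle markers, all detected, summed to 325 and 654 TPM, with Acta2 the largest part at 280.03 and 395.1 TPM. Past 2-fold and higher in replicate 2 were 3 of the 5, and none was lower by that much. The 3 were Myh11 at 1.01 and 24.97 TPM, Tagln at 16.83 and 160.35 TPM and Cnn1 at 8.14 and 49.01 TPM. Acta2 and Smtn, the latter at 19.4 and 24.89 TPM, were less than 2-fold apart. Ckb, which smooth muscle also expresses, was at 186 TPM and 184 TPM. The 8 epithelial markers, of which 2 were detected, summed to 11.6 and 97.1 TPM, and Ckmt1 was likewise higher in replicate 2. Uroplakins were prominent in that sum, with Upk3a at 0.07 and 32.6 TPM and Upk1a at 0.33 and 21.3 TPM. Epcam, at 0 and 0.01 TPM, and Cdh1, at 0.31 and 0.52 TPM, were low in both libraries. The part of these markers in the members' values was not tested. None of the 11 skeletal muscle markers was detected, their sums were 7.43 and 0.52 TPM, and Myod1, Myog, Myf5, Myf6 and Myh4 had 0 counts in both libraries. In replicate 1 Cacna1s reached 3.58 TPM and Tnnt3 2.87 TPM, against 0 TPM and 0.20 TPM in replicate 2. None of the 9 neuron and glia markers was detected, at sums of 2.85 and 3.54 TPM, with Snap25 and Syt1 at 0 in both. None of the 5 lymphoid markers was detected, at sums of 8.47 and 1.15 TPM, with Cd3e at 0 in both. The fibroblast markers summed to 381 and 503 TPM and the endothelial markers to 200 and 190 TPM, with 5 of 5 detected in each list. In RNA from a whole organ, fewer cells of a type and less RNA per cell cannot be told apart.

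**Figure D4:**
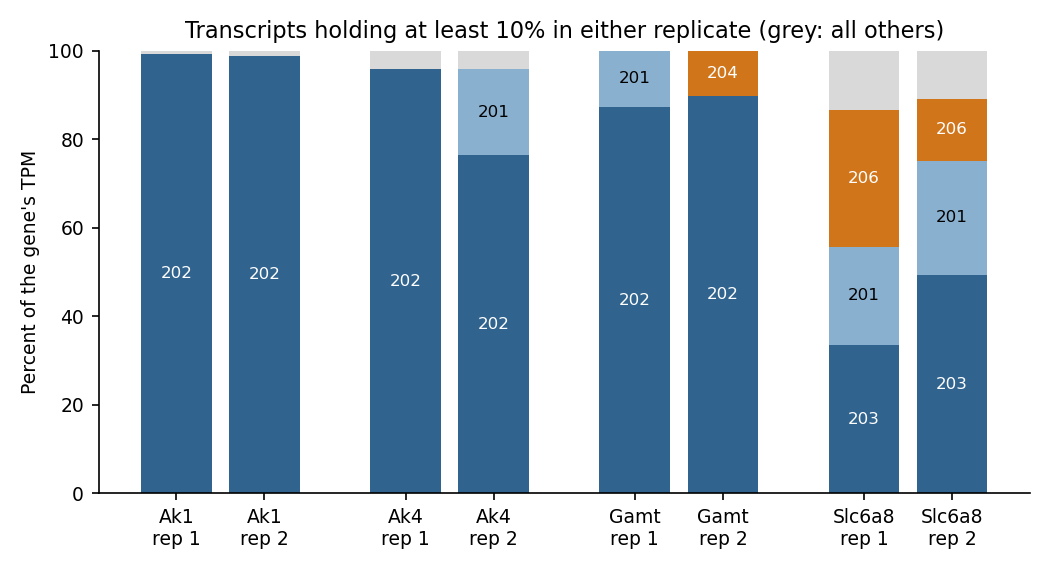
Share of TPM by transcript, in percent, for Ak1, Ak4, Gamt and Slc6a8, with replicate 1 and replicate 2 side by side. Transcripts with 10% or more in either replicate are drawn singly, and all others are in grey. By the maximum likelihood estimate 1 transcript holds most of the TPM of Ak1, Ak4 and Gamt in both replicates, and Slc6a8 is divided among several.

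The transcript tables showed which form of each gene was read. Ckm, Ckb and Ckmt2 have 1 transcript each in the deposited tables, so their reads were not divided among transcripts. Their TPM still depends on the length of that model, which for Ckm-201 is 1415 nucleotides as deposited and 1235 in GENCODE M21. All Ckmt1 counts were given to 1 of 10 transcripts, Ckmt1-202, by the maximum likelihood estimate, but by the posterior means that transcript held only 39.4% and 63.2%. Of 6 Ak1 transcripts, Ak1-202 held 99.2% and 98.9%. It starts at position 32625437 of chromosome 2, and its upstream window is the one shown above. Ak3-201 held all of the Ak3 TPM in replicate 1 and 99.8% in replicate 2.

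Ak4, Gamt and Slc6a8 had more than 1 transcript with 10% or more of their TPM. Ak4-202 held 95.9% in replicate 1 and 76.5% in replicate 2, and Ak4-201 held 0% and 19.4%. These forms start at positions 101419319 and 101419277 of chromosome 4 and have coding regions of the same length, 672 nucleotides. By the posterior means Ak4-201 held 21.5% and 37.2%, so its 0 in replicate 1 is particular to the maximum likelihood estimate. Gamt-202 held 87.3% and 89.8%, and the remainder was Gamt-201 in replicate 1, at 12.8%, and the retained-intron form Gamt-204 in replicate 2, at 10.2%. The level of Gamt was steady while its minor form was not.

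For Slc6a8 10 of 13 transcripts had counts. Slc6a8-203 held 33.5% and 49.3%, Slc6a8-201 held 22.2% and 25.9%, and Slc6a8-206 held 31.0% and 13.9%. All 3 are protein-coding, with lengths of 3314, 3964 and 2151 nucleotides. The lower share of the shortest of these in replicate 2 went with a gene-level effective length of 2507 in replicate 1 and 2849 in replicate 2, by which the counts are divided. The log2 difference of Slc6a8 between the replicates was -0.47 by TPM and -0.27 by counts. Transcripts annotated as other than protein-coding held 9.88% and 10.2% of the Slc6a8 TPM.

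Reads can be shared by genes of similar sequence, and the members were compared for this with the GENCODE M21 transcripts. The coding regions of Ckm and Ckb, 1146 nucleotides each, were identical at 76.4% of aligned positions, with a longest identical run of 20 nucleotides. Ckmt1 and Ckmt2 were identical at 72.7%, with a longest run of 39 nucleotides, and the 3 adenylate kinase members at 64.4% to 64.9%. These runs are short beside the length of a read. For 7 members no window of 1 read length occurred in another gene. The windows were those of the leading transcript, except that Ckm-203 stood in for Ckm-201. For Ckb 150 of 1372 such windows, 10.9%, also occurred in the pseudogene Gm12892, which was given 0.24 TPM and 0.13 TPM. For Ak4 342 of 4075, 8.39%, also occurred in the pseudogene Ak3l2-ps, which was given 0 TPM and 0.02 TPM. The Ckb and Ak4 levels are therefore uncertain by the way such reads were divided, though little was given to the pseudogenes.

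Overlapping genes were few. The antisense genes across Ckm and Ckmt2, A930016O22Rik and 1700119I11Rik, had 0 counts in both libraries. Ak3 overlaps Cdc37l1 on the opposite strand, at 16.3 TPM and 14.5 TPM, a level near that of Ak3 itself, and the libraries keep strand.

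The wider pathway was read from a list of 44 genes, of which 43 were matched and 33 detected. Of 35 whose mean reached 1 TPM, 4 differed 2-fold between the replicates, 2 in each direction, against 19.0% of genes. By counts 2 of them did, against 14.5% of genes. The median log2 difference of the list was 0.06. The mitochondrial exchange list held the most abundant of these genes, with the ADP/ATP carriers Slc25a4 at 1621 TPM and 1969 TPM and Slc25a5 at 364 TPM and 432 TPM, and 5 of its 6 members were detected. Slc25a4, the heart and muscle form of the carrier through which ATP leaves the matrix, was at the level of Ckm and more than 10 times that of Ckmt2.

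All 10 other nucleotide kinases were detected. They were led by the nucleoside diphosphate kinase Nme2, at 240 TPM and 264 TPM, with Nme3 next by mean at 15.7 TPM and 15.4 TPM. Nme1 was at 12.3 TPM and 4.56 TPM on nearly equal counts of 1150 and 1176, with effective lengths of 888 and 2327, and both Nme1 and Nme2 overlap the readthrough gene Gm20390. Of 14 matched genes of AMP and adenosine handling 11 were detected, led by Adsl, of purine synthesis, at 41.6 TPM and 40.6 TPM, and adenosine kinase Adk, at 31.2 TPM and 32.9 TPM. Ampd1, the AMP deaminase of skeletal muscle, had 0 counts in both libraries. Ampd2 was at 4.66 TPM and 21.5 TPM, a log2 difference of 2.16 that was 0.42 by counts. The nucleotidase Nt5c1a was at 3.82 TPM and 0.89 TPM, a log2 difference of -2.01 that was -2.02 by counts.

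Subunits of AMP-activated kinase, the sensor of the AMP that adenylate kinase yields, were detected for 6 of 7 genes. Prkag1, a regulatory subunit, was at 31.8 TPM and 30.6 TPM, and the catalytic subunit Prkaa2 was at 21.8 TPM and 17.0 TPM, both above Ak4. Prkag3, known from skeletal muscle, was at 0.62 TPM and 2.53 TPM, a log2 difference of 1.85 that was 1.05 by counts.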

How the data were processed

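Total RNA above 200 nucleotides was measured in 2 replicates of 1 group. The submitters' processing notes name mm10 and GENCODE M4. The column names are those of RSEM, while no aligner, version or interval level is given in the sources used here. The interval bounds deposited by the authors, a signal that is never negative, are on the TPM scale. The expected counts deposited by the authors are estimated fragments per gene, not normalized between libraries. The TPM and FPKM deposited by the authors are scaled by effective length and library total. Transcript shares, deposited as percent of a gene's TPM, were used as given.

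Names and coordinates came from GENCODE M21 (GRCm38), and windows from RefSeq. Log2 ratios and differences had 0.1 TPM added, which understates those of low genes. Folds of ratios within a replicate had nothing added. Folds between replicates were taken from the log2 differences, so they hold the added value except where stated. Differences were centred on the median gene among those whose mean reached 1 TPM. With 1 group and 2 replicates no test was made. Alternatives were posterior means, counts, TMM factors (edgeR 4.0.16), other thresholds, each replicate alone and, chosen after seeing the data, scaling to cardiomyocyte markers or spike-ins. The call of 2-fold differences between replicates was tested on simulated counts that held counting error only (Python 3.11.15, pandas 2.3.3). Sequences were aligned with Biopython 1.88, using Ckm-203 for Ckm since Ckm-201 differs between releases. Depth was 69946215 and 73615802 gene counts. The members and lists were chosen with earlier results of these data known. Of the pathway lists the text names the 2 highest genes, other adenylate kinases, Gatm and genes 2-fold apart; of transcripts, those with 10% or more of a gene's TPM. Pnp was not matched by identifier and was not used, and some listed genes are not reported here.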

Additional observations from a re-analysis of the deposited data

How the results depend on the processing

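All directions of the 12 ratios were the same under every alternative run. With posterior mean TPM the mean log2 ratio was 7.79 for Ckmt2 over Ckmt1, 8.34 for Ckb over Ckmt1 and 2.69 for Gamt over Gatm, and with a pseudocount of 1 TPM these were 6.68, 7.22 and 2.04. Counts not divided by length gave 4.02 for Slc6a8 over Gamt, 1.24 for Gamt over Gatm, 2.20 for Ak1 over Ak3, 4.18 for Ak1 over Ak4, 2.85 for Ckm over Ak1 and 2.76 for the creatine kinases over the adenylate kinase members, and on that scale Slc6a8 over Gamt passed its limit and Gamt over Gatm did not. The 99th percentile as the limit left 3 ratios, and the limit from genes at a mean of 10 TPM admitted all 12. At 1.5-fold 1 member differed between the replicates, and 7 members were detected at 5 TPM. Scaling to cardiomyocyte markers or to spike-ins, both chosen after seeing the data, left no member 2-fold apart among the 8. Depth limits Ckmt1, at 18 and 49 counts, and little else among the members. No paired analysis was possible because there was 1 group.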

Other observations

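The genes nearest to Ckm in level over both replicates, by distance on log2 of TPM plus 0.1, were Hba-a2, an alpha globin, at 1550 TPM and 1688 TPM, mt-Nd4, of mitochondrial complex I, at 1528 TPM and 1677 TPM, and Slc25a4. Those nearest to Ckmt1 were Stambp at 0.14 TPM and 0.36 TPM, Cybb at 0.14 TPM and 0.37 TPM and Col7a1 at 0.15 TPM and 0.36 TPM. With 2 replicates such likeness is of level only.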
